A study of Mus musculus with 10 samples.

Results

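The genes described here encode 10 proteins of branched-chain amino acid breakdown, the mitochondrial route that degrades leucine, isoleucine and valine. They were taken by name (Bcat2, Bckdha, Bckdhb, Dbt, Bckdk, Ppm1k, Ivd, Mccc1, Mccc2 and Auh) from a table of read counts for 23337 genes. All 10 were found in it, and all 10 were among the 11870 genes with enough reads to be tested. The samples are cardiomyocytes of mice at postnatal day 14, isolated by perfusing the heart with collagenase and then sorted by flow cytometry (FACS). Every mouse had received, at postnatal day 1, an AAV9 virus carrying Cre recombinase behind the cardiac troponin T promoter. The knockout group (KO, genotype Actn2-FF) had 2 floxed alleles of Actn2, the gene of the Z-disc protein alpha-actinin-2, and the heterozygote group (HET, Actn2-F+) had 1, with 5 biological replicates in each. The heterozygotes, which carry the same virus and a Cre-sensitive allele of their own, are the only controls, so that no value here refers to untreated or wild-type cells.

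In muscle, branched-chain amino acids are first transaminated by BCAT2. The branched-chain 2-oxoacid dehydrogenase complex then commits the carbon skeletons to oxidation. This complex is built from E1 (BCKDHA and BCKDHB), E2 (DBT) and E3 (DLD), and is switched off when the kinase BCKDK phosphorylates E1 and switched on when the phosphatase PPM1K removes the phosphate. Leucine carbon then passes through IVD, the biotin-dependent 3-methylcrotonyl-CoA carboxylase (MCCC1 and MCCC2) and the hydratase AUH on its way to acetyl-CoA and ketone bodies. The heart oxidises these amino acids as a minor fuel, and reduced activity of the route has been described in failing hearts.

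Total counts of the table ran from 8086656 to 25237696 per sample, with HET1 the deepest. At these depths a gene with 3 counts would stand at 0.119 to 0.371 CPM, far under every enzyme described here. CPM is the count relative to the library total after TMM scaling, a correction for differences in RNA composition. Actn2 itself was at 3181 ± 358 CPM in HET and 1217 ± 55.3 CPM in KO (SD, n = 5 each), and no KO sample overlapped a HET sample. The summed level of 8 cardiomyocyte markers (Myh6, Tnnt2, Tnni3, Actc1, Ryr2, Ttn, Pln and Myl2) was 91169 to 114604 CPM in HET and 86756 to 111422 CPM in KO. Of the 8, Tnni3 (cardiac troponin I) was lower in KO, by a log2 fold change of -0.53 (edgeR adjusted p 0.00165) with no overlap, and the other 7, at -0.14 to 0.044, did not pass. The summed level of 8 endothelial markers was 427 to 647 CPM in HET and 283 to 469 CPM in KO, and all 8 had negative log2 fold changes (-0.65 to -0.38). Of these, Egfl7 passed the test (edgeR adjusted p 0.00612), and the other 7 had adjusted p of 0.0648 to 0.137. In counts from a whole sorted sample, fewer cells of a type and less RNA per cell cannot be told apart. Macrophage markers summed to 13.4 to 36.4 CPM in HET and 8.03 to 10.7 CPM in KO, with 1 of 4 tested markers, Csf1r, lower (adjusted p 0.0216, edgeR). The 6 smooth muscle and pericyte markers summed to 162 to 271 CPM in HET and 190 to 287 CPM in KO. Only Cspg4 passed, at 37.0 ± 6.39 CPM in HET and 132 ± 21.3 CPM in KO (3.57-fold, adjusted p 1.2e-06, edgeR). Among the others, Cnn1 was at 1.05 on the log2 scale, and Myh11, Kcnj8, Rgs5 and Pdgfrb were at -0.65 to -0.33. Their edgeR adjusted p were 0.0806 to 0.395. None of 7 tested fibroblast markers passed, and none reached an unadjusted p below 0.05. HET3 stood apart from the other 9 libraries in 8 interferon-response genes, with a sum of 153 CPM against 6.24 to 14.0 CPM.

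All 10 enzymes had lower mean levels in KO than in HET, and 7 of them fell past the threshold: Bcat2, Bckdha, Bckdhb, Dbt, Ivd, Mccc1 and Mccc2. KO levels were between 63.7% and 86.0% of HET levels, so none of these transcripts was lost. These are RNA levels, and no protein level or enzyme activity was available here. The threshold was an adjusted p of 0.05 in edgeR's quasi-likelihood test, with Benjamini-Hochberg adjustment across the 11870 genes tested. By the same rule 8.64% of all tested genes were lower in KO, 10.2% were higher, and 18.9% were called in either direction. The median log2 fold change (KO over HET) was -0.39 for the 10 enzymes and 0.0023 for all tested genes. Scaling by library totals alone called 1684 genes higher and 760 lower, against 1216 and 1025 with TMM, and 6 of the 10 enzymes were still called lower. In 3 enzymes (Mccc1, Mccc2 and Auh) every KO sample lay below every HET sample, which was the case for 6.32% of all tested genes.

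**Figure D1:**
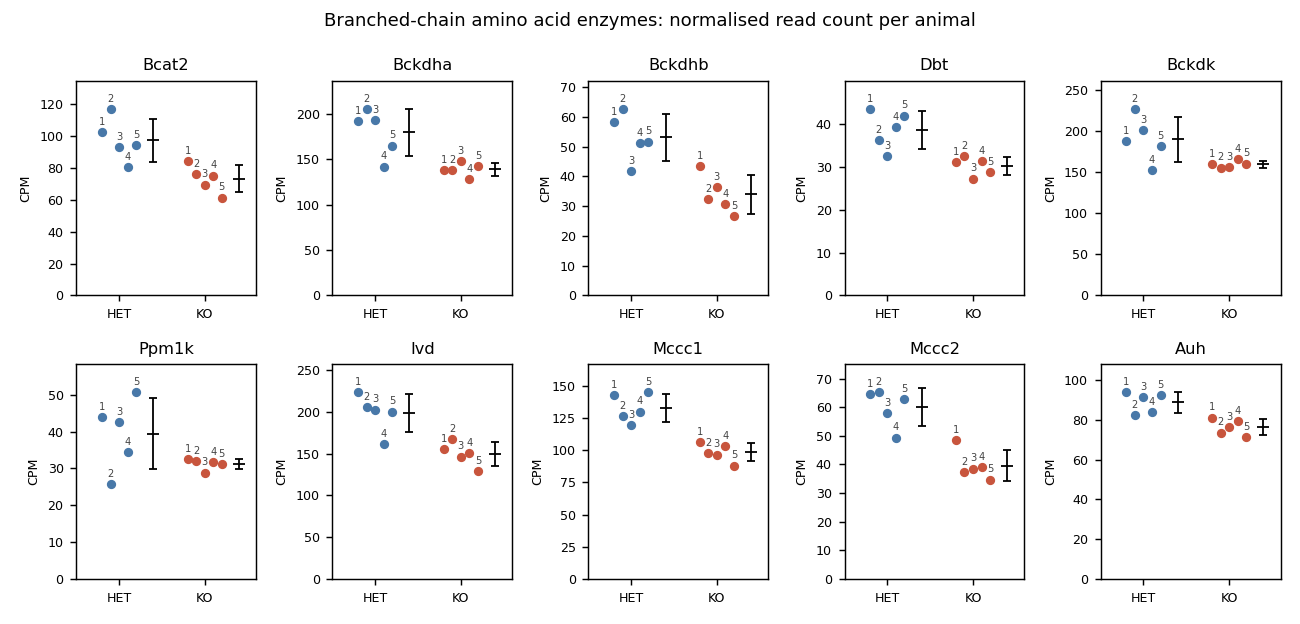
Normalised read count (CPM, linear axis from 0) of the 10 enzymes in each mouse, with HET in blue, KO in red and the replicate number above each point. Black bars are the mean ± SD of 5 mice. KO points lie wholly under HET points for Mccc1, Mccc2 and Auh, and the KO values of Bckdk and Ppm1k sit within the HET range.

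Levels between genes were compared per length, as RPKM (CPM divided by exon length in kilobases). In HET, Bckdha had the highest mean, 101 ± 14.5 RPKM, followed by Ivd at 96.2 ± 10.9, Bckdk at 66.5 ± 9.51 and Auh at 66.0 ± 3.86 RPKM (SD, n = 5). Mccc1 (44.5 ± 3.66 RPKM), Bcat2 (44.2 ± 6.12) and Bckdhb (38.0 ± 5.65) formed the middle, and Mccc2 stood at 28.3 ± 3.10 RPKM. Dbt (11.7 ± 1.35 RPKM) and the phosphatase gene Ppm1k (7.10 ± 1.73) were the lowest. Neighbours in this order overlapped between mice except at 3 steps, from Auh to Mccc1, from Mccc2 to Dbt and from Dbt to Ppm1k. In KO the order differed only where neighbours overlapped, with Auh (56.8 ± 2.97 RPKM) above Bckdk (55.8 ± 1.51) and Bcat2 (33.3 ± 3.89) above Mccc1 (33.0 ± 2.32).

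Bcat2, the mitochondrial aminotransferase that opens the route, lies on the plus strand of chromosome 7 at 45570153 to 45589710 (mm10). Its level was 102, 117, 92.8, 80.4 and 94.4 CPM in HET1 to HET5 and 84.4, 76.2, 69.5, 75.1 and 61.3 CPM in KO1 to KO5. Only KO1 reached into the HET range, above HET4. KO stood at 0.752 of the HET level, a log2 fold change of -0.41 with an SE of 0.113 (adjusted p 0.0206, edgeR). Its exons overlap those of 0610005C13Rik, and reads of the shared part cannot be assigned, so the count is uncertain. The call was lost without HET1 (adjusted p 0.0505), KO3 (0.0548) or KO5 (0.0550), and with the mean level of endothelial markers as a covariate (log2 fold change -0.43, adjusted p 0.121). The cytosolic isoenzyme gene Bcat1 was below the filter, at 0.151 CPM in HET and 0.168 CPM in KO, near the level of 3 counts.

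The subunit genes of the dehydrogenase complex were all lower in KO. E1 beta had the most negative log2 fold change, but its ratio to E1 alpha, given below, did not pass a test between genotypes. Bckdhb, which encodes E1 beta (chromosome 9, plus strand, 83948781 to 84124240), was at 58.2, 62.6, 41.8, 51.3 and 51.7 CPM in HET1 to HET5 and at 43.5, 32.5, 36.5, 30.7 and 26.6 CPM in KO1 to KO5. A single KO value, that of KO1, exceeded the lowest HET value, that of HET3. This made KO 0.637 of HET, or -0.65 on the log2 scale (SE 0.138, adjusted p 0.00460, edgeR). This call held in every fit that left out 1 mouse and under the 10 other settings. The annotation used for counting starts Bckdhb at an exon 23644 bases downstream of a second start that RefSeq gives, so reads of transcripts from the upstream start were counted only where they reach the annotated exons.

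Bckdha encodes E1 alpha, the subunit that the kinase phosphorylates (chromosome 7, minus strand, 25629852 to 25658761). Its level was 192, 205, 193, 141.98 and 165 CPM in HET and 138, 138, 147.6, 128 and 142.14 CPM in KO. HET4 lay among the KO values, while the other HET mice lay above all of them. The genotypes differed with a log2 fold change of -0.37 and an SE of 0.105 (adjusted p 0.0237, edgeR). Without HET1 or KO4 the adjusted p was 0.0547 or 0.0621.

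Dbt encodes E2, the core that passes the acyl group to coenzyme A (chromosome 3, plus strand, 116513079 to 116549981). It was at 43.5, 36.2, 32.42, 39.2 and 41.9 CPM in HET and at 31.1, 32.46, 27.2, 31.4 and 28.8 CPM in KO. KO2 and HET3 nearly coincided, and all other KO values were below all HET values. Its log2 fold change of -0.36 had an SE of 0.103 and passed at an adjusted p of 0.0252 (edgeR). The Dbt call was the least stable of the 7, with adjusted p of 0.0755 without HET1, 0.0644 without HET5, 0.0706 without KO3 and 0.0578 without KO5. It was also lost with scaling by library totals (0.0785) and with the endothelial covariate (0.151). The E3 gene Dld, whose product also serves pyruvate and 2-oxoglutarate dehydrogenase, fell from 739 ± 120 CPM in HET to 510.0 ± 36.0 CPM in KO, by 0.53 on the log2 scale (adjusted p 0.00453, and 0.0772 with the endothelial covariate).

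Kinase and phosphatase of the complex did not pass the threshold. Bckdk (chromosome 7, plus strand, 127904073 to 127909664) was at 188, 227, 201, 152 and 182 CPM in HET and at 160.03, 155, 156, 166 and 160.19 CPM in KO. The KO values were tightly grouped, with a coefficient of variation of 2.70% against 14.3% in HET, and all lay inside the HET range. For Bckdk the log2 fold change of -0.25 had a 95% interval of -0.49 to -0.018 (SE 0.102, adjusted p 0.101, edgeR). Without HET4, the lowest HET mouse, it was -0.32 with an adjusted p of 0.0258. Ppm1k (chromosome 6, minus strand, 57506502 to 57535426) was at 43.9, 25.7, 42.7, 34.4 and 50.7 CPM in HET and at 32.6, 31.9, 28.9, 31.7 and 31.2 CPM in KO. HET2 was below every KO mouse and the other HET mice were above every KO mouse. For Ppm1k the log2 fold change of -0.34 had a 95% interval of -0.68 to 0.0024 (SE 0.148, adjusted p 0.129, edgeR). The unadjusted edgeR p was 0.0379, as the test uses more degrees of freedom than the 8 of the interval. Without HET2 the change was -0.46 with an adjusted p of 0.0109, and voom with sample weights gave -0.43 (adjusted p 0.0224).

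Whether members of the complex and its regulators moved apart was asked with the log2 ratio of length-scaled counts within each library, which needs no scaling between libraries. Across 5 ratios, none differed between genotypes after adjustment (exact two-sided permutation test over all arrangements of the mice, Benjamini-Hochberg over the 5, smallest possible p 0.00794). Bckdk over Bckdha, kinase over substrate, was -0.61 ± 0.0728 in HET and -0.49 ± 0.107 in KO (SD, n = 5), a difference of 0.12 (exact permutation p = 0.0476, adjusted 0.225). KO3 lay within the HET values and the other KO mice above all of them, and without KO3 the difference was 0.15 (adjusted p 0.0397). Bckdk over Ppm1k, kinase over phosphatase, was 3.25 ± 0.495 in HET and 3.31 ± 0.0616 in KO, a difference of 0.058 (exact permutation p = 0.849). HET2 had 4.10 in this ratio and the other HET mice 2.80 to 3.20, under all KO mice. Without HET2 the difference was 0.27 with an adjusted p of 0.0397, and without HET5 it turned to -0.055 (adjusted p 0.968). Leaving out KO3 for Bckdk over Bckdha, or HET2 for Bckdk over Ppm1k, removed the only overlap of the groups. The unadjusted p was then the smallest possible, whatever the size of the difference.

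The subunit ratios gave the same picture. Bckdha over Bckdhb was 1.41 ± 0.272 in HET and 1.70 ± 0.267 in KO (SD, n = 5; difference 0.29, exact permutation p = 0.135), with overlapping mice, so the larger fall of E1 beta than of E1 alpha was not beyond the spread between mice. Mccc1 over Mccc2 was 0.66 ± 0.168 and 0.83 ± 0.112 (difference 0.17, exact permutation p = 0.111). Dbt over Bckdha was -3.10 ± 0.316 and -3.09 ± 0.167 (difference 0.0098, exact permutation p = 0.952).

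**Figure D2:**
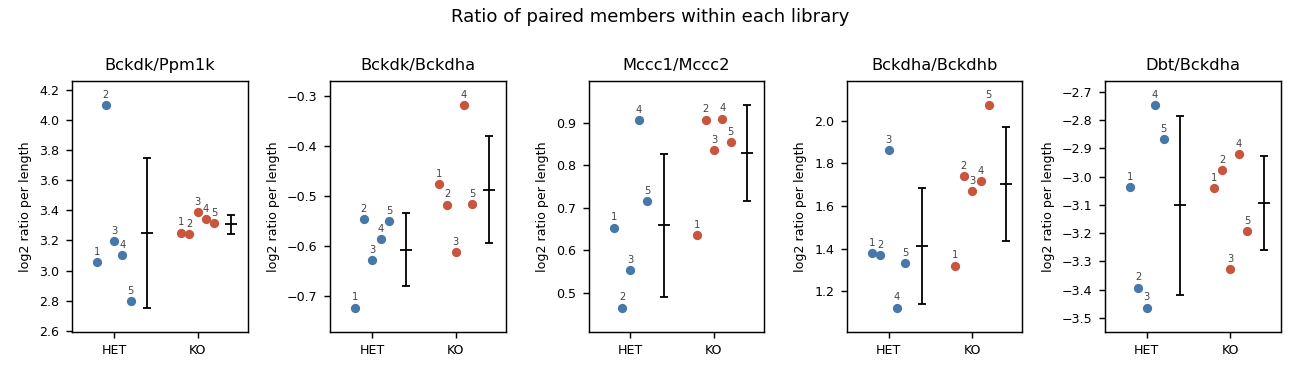
Log2 ratio of length-scaled counts for 5 pairs of genes in each library (axes do not start at 0), HET in blue, KO in red, replicate numbers above the points, black bars mean ± SD of 5 mice. The genotypes overlap in every pair, and HET2 stands at 4.10 in Bckdk over Ppm1k.

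In the leucine branch 3 of the 4 genes described here passed as lower, and Auh was lower without passing. Ivd encodes isovaleryl-CoA dehydrogenase, the first leucine-specific step (chromosome 2, plus strand, 118862000 to 118881357). Its level was 224, 206, 203, 162 and 200.5 CPM in HET and 155, 167, 147, 151 and 129 CPM in KO. KO2 exceeded HET4, and no other pair of mice from the 2 groups crossed. This gave Ivd a log2 fold change of -0.41 with an SE of 0.104 (adjusted p 0.0130, edgeR). It was called in all 10 fits that left out 1 mouse and lost with the endothelial covariate (-0.45, adjusted p 0.0770).

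Mccc1 and Mccc2 encode the alpha and beta subunits of 3-methylcrotonyl-CoA carboxylase, of which alpha carries the biotin. Mccc1 (chromosome 3, minus strand, 35959306 to 36000678) was at 143, 126, 119, 130.1 and 145 CPM in HET and at 106, 98.1, 96.7, 103 and 88.1 CPM in KO. Mccc2 (chromosome 13, minus strand, 99948532 to 100015639) was at 64.7, 65.2, 57.9, 49.4 and 62.9 CPM in HET and at 48.6, 37.2, 38.5, 39.0 and 34.7 CPM in KO. For both subunits the groups did not overlap, although KO1 and HET4 were close for Mccc2. The log2 fold changes were -0.43 for Mccc1 (SE 0.0898, edgeR adjusted p 0.00388) and -0.60 for Mccc2 (SE 0.111, adjusted p 0.00175), the latter the smallest p of the 10 enzymes. Mccc2 was called in every fit that left out 1 mouse and in the 10 other settings. Mccc1 was called in all of them but the endothelial covariate (-0.43, adjusted p 0.0540), and shares exon sequence with A330050B17Rik, so that its count is uncertain. Mccc2 lies 87.6 Mb and Auh 40.5 Mb from Actn2 on the same chromosome.

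Auh encodes 3-methylglutaconyl-CoA hydratase, a protein that also binds AU-rich RNA (chromosome 13, minus strand, 52835110 to 52929677). Its level was 93.8, 82.5, 91.4, 83.9 and 92.4 CPM in HET and 81.1, 73.6, 76.4, 79.5 and 71.5 CPM in KO. All KO mice lay below all HET mice, by as little as the step from KO1 to HET2. The log2 fold change of -0.22 (SE 0.0807, 95% interval -0.40 to -0.032) was the smallest of the 10, and its edgeR adjusted p of 0.0753 missed the threshold. It passed with upper-quartile scaling (-0.25, adjusted p 0.0480), DESeq2 (-0.23, adjusted p 0.0307), voom (-0.23, adjusted p 0.0369) and without HET2 (-0.24, adjusted p 0.0411).

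The start regions of the leucine-branch genes are shown because these genes lie in a row on the route. Ivd, Mccc1 and Mccc2 passed the threshold, while Auh, lower by a log2 fold change of -0.22, did not. The sequences are from RefSeq (GRCm38.p6, the assembly of mm10), run from 250 bases before to 50 bases from the gene's start, and read 5′ to 3′ on the gene's strand. Capitals mark each CCAAT and each GGGCGG (the GC box), on either strand. The windows are chr2:118861744-118862043 (plus strand) for Ivd, chr3:36000629-36000928 (minus) for Mccc1, chr13:100015590-100015889 (minus) for Mccc2 and chr13:52929628-52929927 (minus) for Auh.
Ivd: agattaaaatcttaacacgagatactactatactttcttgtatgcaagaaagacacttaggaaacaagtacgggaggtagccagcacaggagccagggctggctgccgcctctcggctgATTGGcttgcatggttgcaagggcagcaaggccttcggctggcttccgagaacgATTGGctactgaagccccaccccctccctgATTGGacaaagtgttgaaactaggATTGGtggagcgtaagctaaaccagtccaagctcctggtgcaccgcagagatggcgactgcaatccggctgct
Mccc1: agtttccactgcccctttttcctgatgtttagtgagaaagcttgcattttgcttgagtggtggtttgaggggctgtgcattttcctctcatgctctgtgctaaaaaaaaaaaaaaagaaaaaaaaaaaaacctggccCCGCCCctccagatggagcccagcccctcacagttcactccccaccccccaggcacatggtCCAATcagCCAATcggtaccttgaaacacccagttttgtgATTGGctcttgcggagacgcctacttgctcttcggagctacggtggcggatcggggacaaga
Mccc2: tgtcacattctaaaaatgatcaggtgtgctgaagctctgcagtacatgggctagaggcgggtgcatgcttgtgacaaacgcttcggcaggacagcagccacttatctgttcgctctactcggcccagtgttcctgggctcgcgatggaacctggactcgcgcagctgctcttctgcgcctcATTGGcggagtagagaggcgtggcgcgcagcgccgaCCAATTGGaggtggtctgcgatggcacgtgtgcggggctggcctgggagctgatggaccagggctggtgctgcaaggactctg
Auh: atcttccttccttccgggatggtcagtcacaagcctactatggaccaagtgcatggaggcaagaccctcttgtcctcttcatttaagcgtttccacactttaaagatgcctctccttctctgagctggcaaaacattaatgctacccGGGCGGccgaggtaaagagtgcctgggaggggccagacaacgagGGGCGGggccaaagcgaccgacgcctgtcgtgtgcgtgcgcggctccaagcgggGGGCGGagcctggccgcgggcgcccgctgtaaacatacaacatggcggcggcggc

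RefSeq windows were found for 9 of the 10 genes, all but Dbt, with 11 windows in all. CCAAT was present on either strand in 7 of the 11 windows and in 37.4% of all 32851 windows of the same length. The 7 windows belong to 6 genes (Bckdhb, Bckdk, Ppm1k, Ivd, Mccc1 and Mccc2). Ivd held 4 copies and Mccc1 and Mccc2 3 each, all within the bases before the start, and a pair in Mccc2 overlapped as CCAATTGG. Auh held none, and had 3 copies of GGGCGG. That motif was in 4 of the 11 windows (those of Bckdhb, Ppm1k, Mccc1 and Auh) and in 35.7% of all windows. The extended ERR half-site TNAAGGTCA, the palindromic NRF1 site, the DR1 nuclear receptor repeat and the MEF2 site were in none of the 11 windows, and in 1.28%, 4.60%, 0.0396% and 3.69% of all windows. TATAAA was in 1 of the 11 windows, that of Bckdk, and in 13.6% of all windows. Bckdk and Ppm1k had CCAAT and did not pass, while Bcat2 and Bckdha lacked it and passed. All 10 genes had negative log2 fold changes, so the threshold does not part changed from unchanged genes. A link between motifs and levels was not tested.

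Other enzymes of the route, taken from a list of the isoleucine, valine and propionyl-CoA arms, E3 and the end of the leucine route, showed the same direction. Of 19 tested, 13 were lower in KO, 0 higher and 6 not called, with a median log2 fold change of -0.49. Of the 6 genes listed for the isoleucine arm 5 fell, among them Echs1 (enoyl-CoA hydratase, -0.62, edgeR adjusted p 0.000364) and Acat1 (the thiolase, -0.49, adjusted p 0.000676). Echs1 and Acat1 also serve fatty acid or ketone oxidation. The list also held Hadha (-0.57) and Hadhb (-0.63), the trifunctional protein of fatty acid oxidation, and both are among the 5 and the 13. Acadsb, the dehydrogenase specific to the isoleucine arm, was at 87.5 ± 17.9 and 81.4 ± 3.53 CPM in HET and KO (log2 fold change -0.11, 95% interval -0.40 to 0.19, adjusted p 0.619).

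In the valine arm, 3 of 4 fell. Aldh6a1 (methylmalonate-semialdehyde dehydrogenase) changed by -0.64 (edgeR adjusted p 0.00306), Hibadh by -0.62 (adjusted p 0.000467) and Hibch by -0.43 (adjusted p 0.0119). Exons of Aldh6a1 overlap those of 2900006K08Rik, and exons of Hadha those of Fam59b, so both counts are uncertain. Acad8, isobutyryl-CoA dehydrogenase, just missed at -0.26 (adjusted p 0.0505). In the propionyl-CoA arm, where the isoleucine and valine carbon enters the citric acid cycle, 3 of 7 fell: Pcca (-0.49, adjusted p 0.00324), Mcee (-0.56, adjusted p 0.00506) and Mut (-0.53, adjusted p 0.00873). With the endothelial covariate the calls of Hibch (adjusted p 0.189) and Mut (0.0788) were lost. Pccb, the partner subunit of Pcca, was at 64.6 ± 12.6 CPM in HET and 54.5 ± 10.4 CPM in KO (adjusted p 0.264).

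Genes that bring the amino acids in, or biotin onto the carboxylases, went the other way or did not pass. Of 5 transporter genes tested, 2 were higher in KO and 0 lower. Slc7a5, the large neutral amino acid transporter of the plasma membrane, rose from 6.63 ± 0.977 CPM in HET to 12.2 ± 3.16 CPM in KO, a log2 fold change of 0.87 with an SE of 0.198 (adjusted p 0.00683, edgeR), with 5.16 to 7.77 CPM in HET and 8.03 to 14.8 CPM in KO. Its heavy chain Slc3a2 was at 57.6 ± 24.6 and 50.3 ± 15.99 CPM (log2 fold change -0.19, 95% interval -0.79 to 0.41, adjusted p 0.668). Slc43a2, another neutral amino acid transporter, rose from 33.5 ± 4.86 CPM to 45.7 ± 6.40 CPM (log2 fold change 0.44, adjusted p 0.0233), a call lost without KO2 (adjusted p 0.0611) or KO4 (0.0618) and with the endothelial covariate (0.172). Slc25a44, the mitochondrial carrier of branched-chain amino acids, was at 33.0 ± 4.15 and 38.1 ± 2.45 CPM (0.21, adjusted p 0.184).

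Hlcs, which encodes the ligase that attaches biotin to MCCC1 and other carboxylases, rose from 7.78 ± 1.59 CPM in HET to 14.0 ± 3.11 CPM in KO (0.83 on the log2 scale, SE 0.184, adjusted p 0.00596, edgeR) with no overlap between the groups. That call was lost under 1 of 20 alternatives, the endothelial covariate (adjusted p 0.0549). Btd, biotinidase, was at 12.9 ± 1.57 and 15.6 ± 0.982 CPM (adjusted p 0.135). Klf15, a transcription factor known to drive branched-chain amino acid breakdown genes in heart and muscle, was at 44.1 ± 7.70 CPM in HET and 44.8 ± 20.6 CPM in KO (log2 fold change 0.032, 95% interval -0.50 to 0.57, adjusted p 0.944). KO5 had 80.8 CPM of Klf15 and the other KO mice 29.0 to 40.9 CPM, against a HET range of 32.1 to 52.2 CPM.

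**Figure D3:**
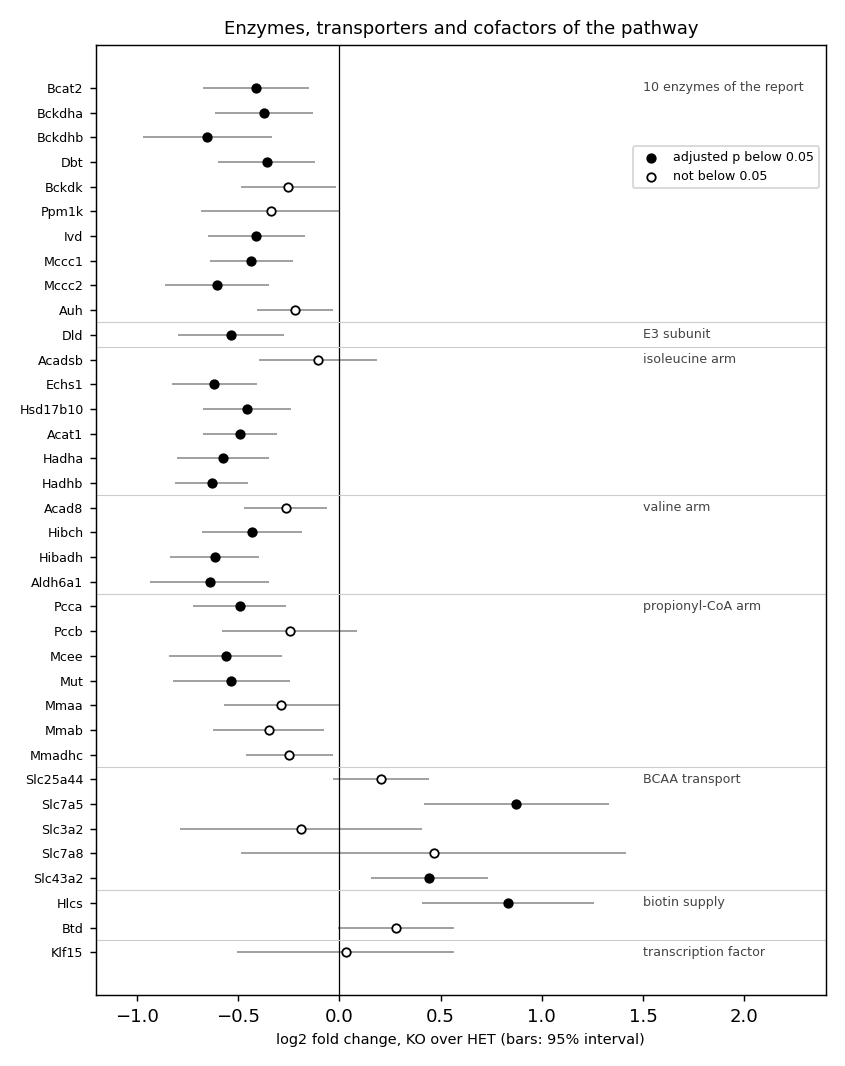
Log2 fold change (KO over HET) of the enzymes and of partner genes of the route with 95% intervals, ordered by role from top to bottom. Filled points had an edgeR adjusted p below 0.05. The enzymes lie left of 0, and the called points right of 0 are Slc7a5, Slc43a2 and Hlcs.

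**Figure D4:**
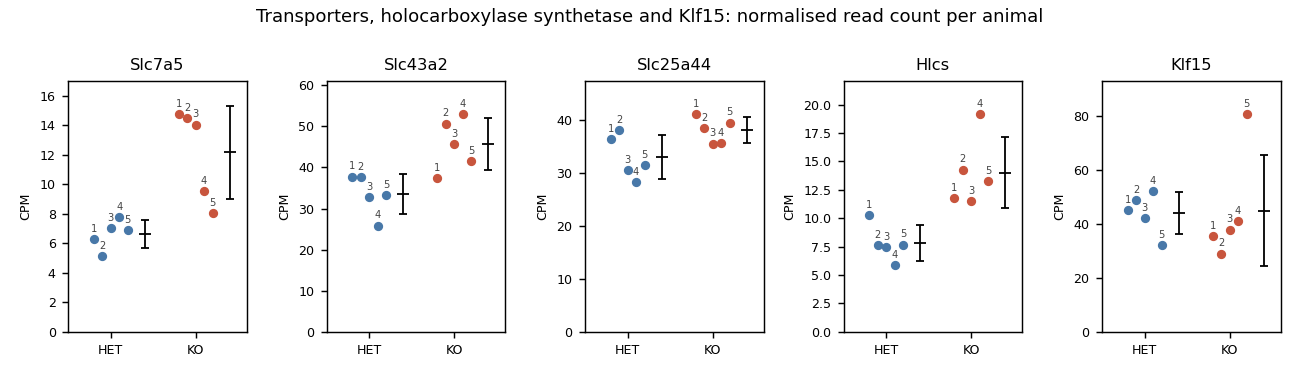
Normalised read count (CPM, linear axis from 0) of 3 transporters, Hlcs and Klf15 in each mouse, HET in blue, KO in red, black bars mean ± SD of 5 mice. The genotypes are apart for Slc7a5 and Hlcs, and KO5 stands at 80.8 CPM in Klf15.

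The fall of the 10 enzymes was set beside related mitochondrial enzymes tested in the same fit. Of 15 citric acid cycle genes all 15 were lower in KO, with a median log2 fold change of -0.48, and of 7 acyl-CoA dehydrogenases and electron acceptors of fatty acid oxidation all 7 were lower, with a median of -0.70. Acadvl, the very-long-chain homologue of Ivd, changed by -0.78 (edgeR adjusted p 0.000278). Lower levels were thus also measured in other mitochondrial fuel enzymes, and the median of the 10 enzymes was the closest to 0 of the 3 lists. A difference between the lists was not tested.

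Single mice shifted several enzymes at once. HET4 was the lowest HET mouse in 5 of the 10 enzymes and HET2 the highest in 5, while KO1 was the highest KO mouse in 6 and KO5 the lowest in 6. The number of enzymes called ran from 4 without HET1 to 9 without HET2. Without HET3, the mouse with high interferon-response genes, it was 7. The mean log2 level of the endothelial markers was 5.53 to 6.23 in HET and 4.96 to 5.64 in KO. With it as a covariate, log2 fold changes stayed negative in all 10 enzymes, and 3 remained called (Bckdha at -0.52, Bckdhb at -0.67 and Mccc2 at -0.69), while calls over all genes went from 2241 to 942. Bcat2, Dbt, Ivd and Mccc1 lost their calls at -0.43, -0.36, -0.45 and -0.43, against -0.41, -0.36, -0.41 and -0.43 without the covariate. The marker level was mostly lower in KO, so this fit cannot separate it from genotype. Whether endothelial content bears on the enzyme levels was not tested.

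**Figure D5:**
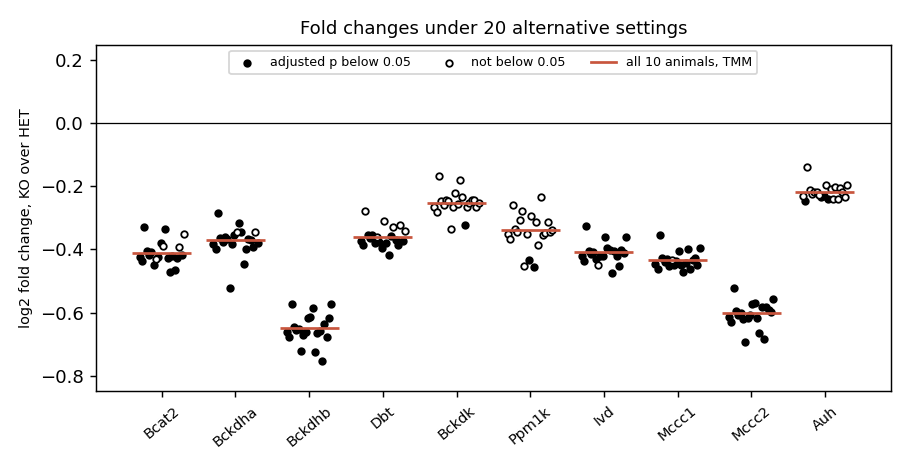
Log2 fold change of each enzyme (KO over HET) under 20 alternative settings, each point a setting, filled where the adjusted p was below 0.05, with a red line for the value from all 10 mice with TMM scaling. All points lie below 0, and those of Bckdhb and Mccc2 are all filled.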

How the data were processed

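The authors' deposited read counts are whole numbers per gene, not normalised. Per the file headers they were made with featureCounts 1.5.1 on the UCSC annotation of mm10, with 4 threads and no other option, so strand was not used and reads shared between genes or places were left out. The submitters' processing notes name STAR 2.5.3a and Subread 1.5.2. Per the labels' protocols, 10 ng of RNA was amplified by 8 PCR cycles (SMART-Seq) and 500 pg of cDNA went into Nextera XT libraries. The table has 14 count columns, of which 4 match no sample here and were not used. Columns were matched to samples by title. Exon lengths are those of the deposited table, another value per gene.

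Genes were filtered with filterByExpr (minimum count 10, minimum total 15), scaled with TMM, and compared between genotypes over all 10 samples, with no covariate, by the quasi-likelihood test of edgeR 4.0.16 in R 4.3.3. SE is the log2 fold change divided by the square root of F, and 95% intervals use 8 residual degrees of freedom. The test uses more, so an interval can include 0 where the unadjusted p is below 0.05. Log2 CPM has a prior of 1, ratios a pseudocount of 1. Alternatives used limma 3.58.1 (voom), DESeq2 1.42.0, other scalings, filters and covariates, and leaving out each mouse. The rule for named genes was all 10 enzymes, plus genes of the listed arms. A gene of these lists stands in the partner counts and is not reported here. The members and lists were chosen with earlier results of these data known. Replicates differed by a chi-square of 10.8 to 37.5 per degree of freedom over 20 pairs, so none was a copy. In simulated counts with 11764 genes tested, 84.8% of genes changed 2-fold and 100% of those changed 4-fold were called, and 3.16% of calls were false. Changes smaller than 2-fold, as in all 10 enzymes, were not simulated. Floors of 3 counts cover counting error only.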

Additional observations from a re-analysis of the deposited data

Results flagged for a closer look

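In 86 groups of 5 values (an enzyme, a further gene of the route, a ratio or a total in a single genotype), 4 had a mouse whose gap to the nearest other exceeded 0.71 of the group's range, where chance gives about 1 in 20. HET1 had 25237696 counts and the next deepest HET sample 10309615, and without HET1 4 of the 10 enzymes were called. KO1 had a log2 ratio of Mccc1 over Mccc2 of 0.64, against 0.84 in the next KO mouse. KO1 also had 72.5 CPM of Pccb against 53.4 CPM in the next KO mouse, and KO5 had 80.8 CPM of Klf15 against 40.9 CPM.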

How the results depend on the processing

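All 10 enzymes kept a negative log2 fold change under all 20 alternatives. Of 325 combinations of result and alternative, 293 were the same, 17 weaker, 9 stronger and 6 reversed, all 6 in ratios near 0. For fold changes and ratios, same means that direction and side of the threshold were kept, and weaker or stronger a call lost or gained. The 325 also hold counts of called genes, which were taken as the same within 1.5-fold and otherwise as weaker or stronger. Calls were lost for Dbt with library totals (-0.28), and with the endothelial covariate for Bcat2 (-0.43), Dbt (-0.36), Ivd (-0.45) and Mccc1 (-0.43), leaving 3 enzymes and 942 genes called. Auh gained a call with upper-quartile scaling (-0.25), DESeq2 (-0.23) and voom (-0.23), and Ppm1k with voom (-0.43). The cause was not tested. Leaving out single mice gave -0.47 to -0.33 for Bcat2, -0.45 to -0.32 for Bckdha, -0.42 to -0.31 for Dbt, -0.32 to -0.18 for Bckdk, -0.46 to -0.23 for Ppm1k and -0.24 to -0.19 for Auh. It gave -0.75 to -0.57 for Bckdhb, -0.48 to -0.36 for Ivd, -0.47 to -0.40 for Mccc1 and -0.68 to -0.56 for Mccc2. Calls then ran from 4 to 9 enzymes, 45 to 49 of 62 partner genes (46 with all mice) and 1699 to 2258 genes. The ratio differences ranged from 0.20 to 0.40 for Bckdha over Bckdhb and 0.12 to 0.23 for Mccc1 over Mccc2. They ranged from -0.055 to 0.27 for Bckdk over Ppm1k, 0.077 to 0.15 for Bckdk over Bckdha and -0.081 to 0.098 for Dbt over Bckdha. The reversed value for Bckdk over Ppm1k was -0.055 without HET5. Those for Dbt over Bckdha were -0.063 without HET2, -0.081 without HET3, -0.0034 without KO1, -0.019 without KO2 and -0.033 without KO4. With the replicate number as a block, 7 enzymes, 46 partner genes and 2182 genes were called, and none of the 10 enzymes changed its side of the threshold. Same-numbered mice had correlations of -0.055 to 0.22 in their deviations, and 2 of the 5 HET mice matched their own number best, so the numbers were not taken as pairs.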

Other observations

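Pyruvate dehydrogenase, a complex of the same build as the branched-chain one, also has kinases and phosphatases, and its genes gave a mixed pattern. The subunit genes Pdha1, Pdhb, Dlat and Pdhx changed by -0.48, -0.53, -0.48 and -0.52 on the log2 scale (edgeR adjusted p 0.00227, 0.000763, 0.00368 and 0.00324). Among the kinase genes, Pdk2 fell from 625 ± 71.9 to 437 ± 25.3 CPM (adjusted p 0.00164) and Pdk3 rose from 14.7 ± 2.78 to 25.3 ± 5.19 CPM (adjusted p 0.00444), with no overlap between genotypes in either (SD, n = 5). Pdk1 was at 247 and 238 CPM and Pdk4 at 1610.1 and 1126 CPM, neither passing. The phosphatase gene Pdp2 fell from 7.95 ± 2.62 to 3.78 ± 1.18 CPM (adjusted p 0.0148, and 0.118 with the endothelial covariate), and Pdp1 was at 92.8 ± 19.2 and 90.8 ± 8.30 CPM (adjusted p 0.890). Exons of Pdha1 overlap those of Map3k15, so its count is uncertain.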
